A study of Mus musculus with 12 samples.

Results

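The numbered Zfp genes are the mouse zinc finger genes whose symbol is Zfp followed only by digits, such as Zfp36 or Zfp871. They were found by matching the gene symbols of the count table to that pattern. The pattern found 287 of the 12752 genes in the table, or 2.25% of them. The reference annotation, GENCODE release M21, holds 374 symbols of this pattern, so 88 of them were not among the measured genes. Of the members, 285 are annotated as protein-coding and 2 as pseudogenes. All 287 entered the test, and leaving the DUX_DOX libraries out brought the mean count of 0 members under 10.

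Most of these genes encode C2H2 zinc finger proteins, in which small folds held by a zinc ion read DNA bases in a row. Many carry at their start a KRAB box, a short domain that recruits the corepressor Trim28 (KAP1) and, through it, the histone methyltransferase Setdb1 and HP1 proteins, which silence retroelements and nearby genes. KRAB zinc finger genes arose largely by tandem duplication and lie in clusters. Others lack the box and work as transcriptional activators, as RNA-binding proteins or in ribosome biology. The shared name therefore marks a type of domain, not a pathway.

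The study measured poly-A RNA of the tibialis anterior, a fast muscle of the lower leg, in male C57BL/6 mice. Some of the muscles received an injected vector with a doxycycline-inducible transgene for Dux. Dux is a double homeobox factor of the early mouse embryo related to human DUX4. All muscles received AAV:TET by injection at 8 weeks of age. EV had AAV:MCS, the empty vector, and normal chow. EV_DOX had AAV:MCS and doxycycline chow at 600 mg/kg. DUX had AAV:Dux and normal chow, and DUX_DOX had AAV:Dux and doxycycline chow. Each group had 3 libraries. Chow was assigned 7 days after injection, and the labels name 2 or 7 days of it without saying which holds here. The labels name no promoter for the vectors, and the protocol injects both vectors into opposite limbs without tying a replicate number to a mouse. The labels do not say that the libraries of a group came from separate animals, so the p-values measure only the spread between these libraries.

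Library totals ran from 11880593 to 13811999 counts. Levels are CPM (read counts scaled to library size), adjusted by the TMM factors. The labelled tissue matched markers of muscle, since the summed level of 6 muscle fibre genes was 101100 to 141960 CPM in the 12 libraries. The summed level of 16 macrophage and monocyte genes was 124 to 179 CPM in EV_DOX, 188 to 209 CPM in DUX and 318 to 462 CPM in DUX_DOX. Of these 16 genes 14 rose in DUX_DOX against EV_DOX. In bulk tissue, fewer cells of a type and less RNA per cell cannot be told apart. The summed level of 5 tenocyte genes reached 954 CPM in EV 3 and 879 CPM in EV_DOX 1, against 102 to 167 CPM in DUX and 224 to 309 CPM in DUX_DOX. With both of those libraries left out, a choice made after seeing the data, 21 members rose and 35 fell in DUX_DOX against EV_DOX.

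The main question was what the induced Dux vector did to these genes beyond doxycycline and the vector backbone, DUX_DOX against EV_DOX. In this comparison 26 members rose and 32 fell, at an adjusted p under 0.05 over all genes tested. That is 20.2% of the members, against 25.3% of all genes. Rises made up 9.06% of the members and 14.9% of all genes, and falls 11.1% of the members and 10.3% of all genes. The median log2 fold change was -0.11 over the members and -0.01 over all genes, with 173 members below 0 and 114 above. Most of the changes called were small. Only 5 members rose and 3 fell by more than 2-fold, or 8 of 287. Among the 12751 genes tested, 705 were called at over 2-fold. Of the 58 calls 36 were changes of less than 1.5-fold, a count not taken over all genes.

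With upper-quartile scaling in place of TMM, 22 members rose and 43 fell. The numbers of calls changed when single libraries were left out. Such a fit also has fewer libraries in a group, and the same counts over all genes are not given here. Rises numbered 14 without EV_DOX 2, 16 without DUX_DOX 2 and 17 without EV_DOX 3, and falls numbered 18 without DUX_DOX 3 and 18 without EV_DOX 3. Over the 12 libraries, the DUX_DOX libraries all lay above the other 9 for 26 members, or 9.06%, against 15.7% of all genes. They all lay below the other 9 for 44 members, or 15.3%, against 10.8% of all genes.

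A KRAB A box was found by a profile search in the translated coding sequences of 165 members and was not found in 120. Among the KRAB members 7 rose and 16 fell, their median log2 fold change was -0.17, and 109 of them lay below 0. Among members without the box 19 rose and 16 fell, with a median of -0.03 and 62 below 0. Called were 13.9% of the KRAB members and 29.2% of the others, against 25.3% of all genes. Falls made up 9.70% and 13.3%, against 10.3% of all genes. Their rises made up 4.24%, against 15.8% of the others and 14.9% of all genes. The share of members below 0 thus differed in these counts, but the difference between the classes was not tested. The KRAB members were also measured at lower levels, with a median of 3.75 CPM against 13.8 CPM. Their transcripts held less G and C, with a median of 42.7% against 50.4% without the box and 49.75% over all genes. With an offset for GC content the medians were -0.13 and -0.03. Members were also divided by their number of finger matches, and differences between these classes were not tested. The 166 members with 10 or more C2H2 matches had a median of -0.19 with 9 rises and 19 falls, the 83 members with 4 to 9 matches 0.01 with 9 and 7, and the 36 members with at most 3 matches -0.01 with 8 and 6. In this order 16.9%, 19.3% and 38.9% were called, against 25.3% of all genes. Rises made up 5.42%, 10.8% and 22.2%, against 14.9% of all genes. Falls made up 11.4%, 8.43% and 16.7%, against 10.3%.

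**Figure D1:**
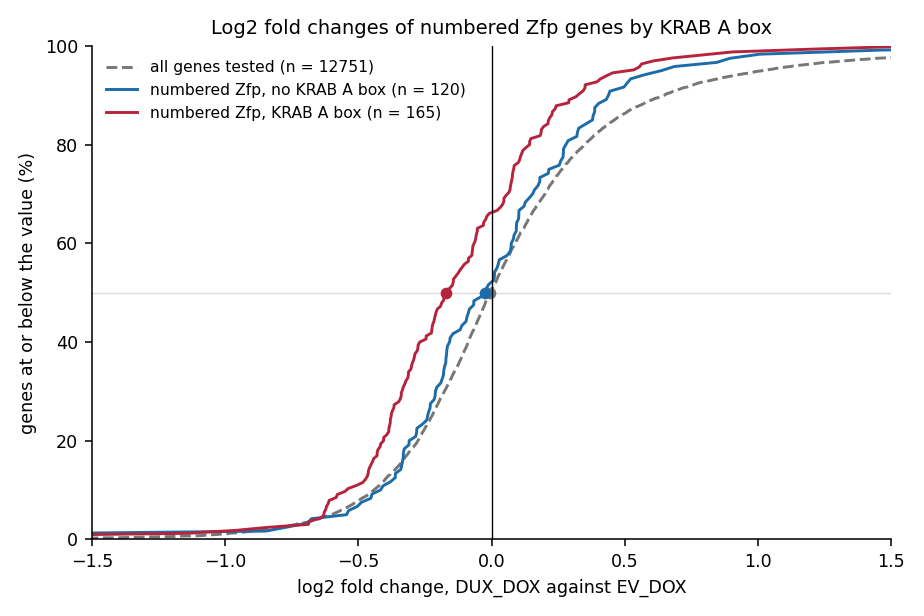
Cumulative share of genes (%, y axis) at or below each log2 fold change of DUX_DOX against EV_DOX (x axis), for 165 numbered Zfp genes with a KRAB A box, 120 without one and all 12751 genes tested. Dots mark the medians, -0.17, -0.03 and -0.01, and the axis stops at 1.5 on either side.

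Of the corepressor genes that KRAB proteins work with, a list of 34, 6 rose and 2 fell, and the median was 0.03. The log2 fold changes of the list ran from -0.48 to 3.49, and 1 gene was called at over 2-fold. The share called was 23.5%, near the 25.3% of all genes. Trim28, the direct partner of the KRAB box, stood at 39.9 to 41.7 CPM in EV_DOX and at 49.8 to 56.9 CPM in DUX_DOX. Its log2 fold change was 0.38 ± 0.08 (SE, adjusted p 0.00319). Setdb1, the methyltransferase, stood at 21.6 to 21.8 CPM in EV_DOX and at 21.1 to 23.6 CPM in DUX_DOX, a log2 difference of 0.07 ± 0.08 (SE, adjusted p 0.568).

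Among the rises, Zfp407 changed most. Zfp407, a large protein with many fingers that is known to support glucose uptake in fat cells, lies on chromosome 18, 84128027 to 84589725. Its level was 9.25, 9.78 and 7.98 CPM in EV, 8.03, 7.44 and 7.83 CPM in EV_DOX and 7.99, 8.85 and 9.34 CPM in DUX. In DUX_DOX it was 54.1, 47.0 and 22.4 CPM. The 9 libraries outside DUX_DOX lay close together, and all 3 DUX_DOX libraries were above them, the third at less than the level of the other two. The log2 fold change was 2.41 ± 0.24 (SE, adjusted p 7.74e-06), a 5.30-fold rise on 306 counts in EV_DOX and 1657 in DUX_DOX.

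Zfp772, a KRAB member on chromosome 7 with 9 finger matches, came next. It had 2.85, 3.72 and 2.97 CPM in EV_DOX and 9.98, 10.7 and 8.27 CPM in DUX_DOX, with 1.69 to 2.85 CPM in the 6 libraries on normal chow. The groups did not overlap, and the log2 fold change was 1.60 ± 0.19 (SE, adjusted p 2.93e-05). Zfp697, an RNA-binding protein known from muscle inflammation and regeneration, had 2.26, 1.01 and 1.96 CPM in EV_DOX and 4.11, 4.15 and 6.26 CPM in DUX_DOX. All DUX_DOX libraries were above the other 9, and the log2 fold change was 1.46 ± 0.30 (SE, adjusted p 0.00295). Of its 50-base transcript windows 10.5% also occur in another annotated gene, mostly Gja5. Zfp37, another KRAB member, had 1.31, 1.01 and 0.626 CPM in EV_DOX and 2.36, 2.50 and 2.09 CPM in DUX_DOX. Its rise of 1.22 ± 0.31 (SE, adjusted p 0.0110) came beside low EV_DOX values, since EV reached 2.08 CPM and DUX 1.98 CPM.

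Zfp36, tristetraprolin, binds AU-rich elements and speeds the decay of cytokine mRNAs, and it holds CCCH fingers and no C2H2 match. It stood at 10.2, 13.5 and 8.21 CPM in EV, 8.18, 11.4 and 12.4 CPM in EV_DOX, 12.0, 15.2 and 20.2 CPM in DUX and 20.9, 20.7 and 22.5 CPM in DUX_DOX. DUX_DOX was above EV_DOX in every library, while the highest DUX library nearly reached the lowest DUX_DOX library. The log2 fold change was 1.01 ± 0.20 (SE, adjusted p 0.00246) against EV_DOX and 0.43 ± 0.20 (SE, adjusted p 0.111) against DUX. On normal chow Zfp36 differed between DUX and EV by 0.57 ± 0.21 (log2, SE, adjusted p 0.237). The vector difference on doxycycline chow minus that on normal chow was 0.43 ± 0.29 (log2, SE, adjusted p 0.357). Its relative Zfp36l2 also rose, from 14.8 to 16.2 CPM in EV_DOX to 20.2 to 28.1 CPM in DUX_DOX (log2 0.62 ± 0.14, SE, adjusted p 0.00509). In a list of 11 Zfp36 relatives and mRNA decay partners 1 rose and 1 fell, or 18.2% against 25.3% of all genes. The macrophage and monocyte genes given above rose in the same libraries, and their part in the levels of Zfp36 and Zfp697 was not tested.

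**Figure D2:**
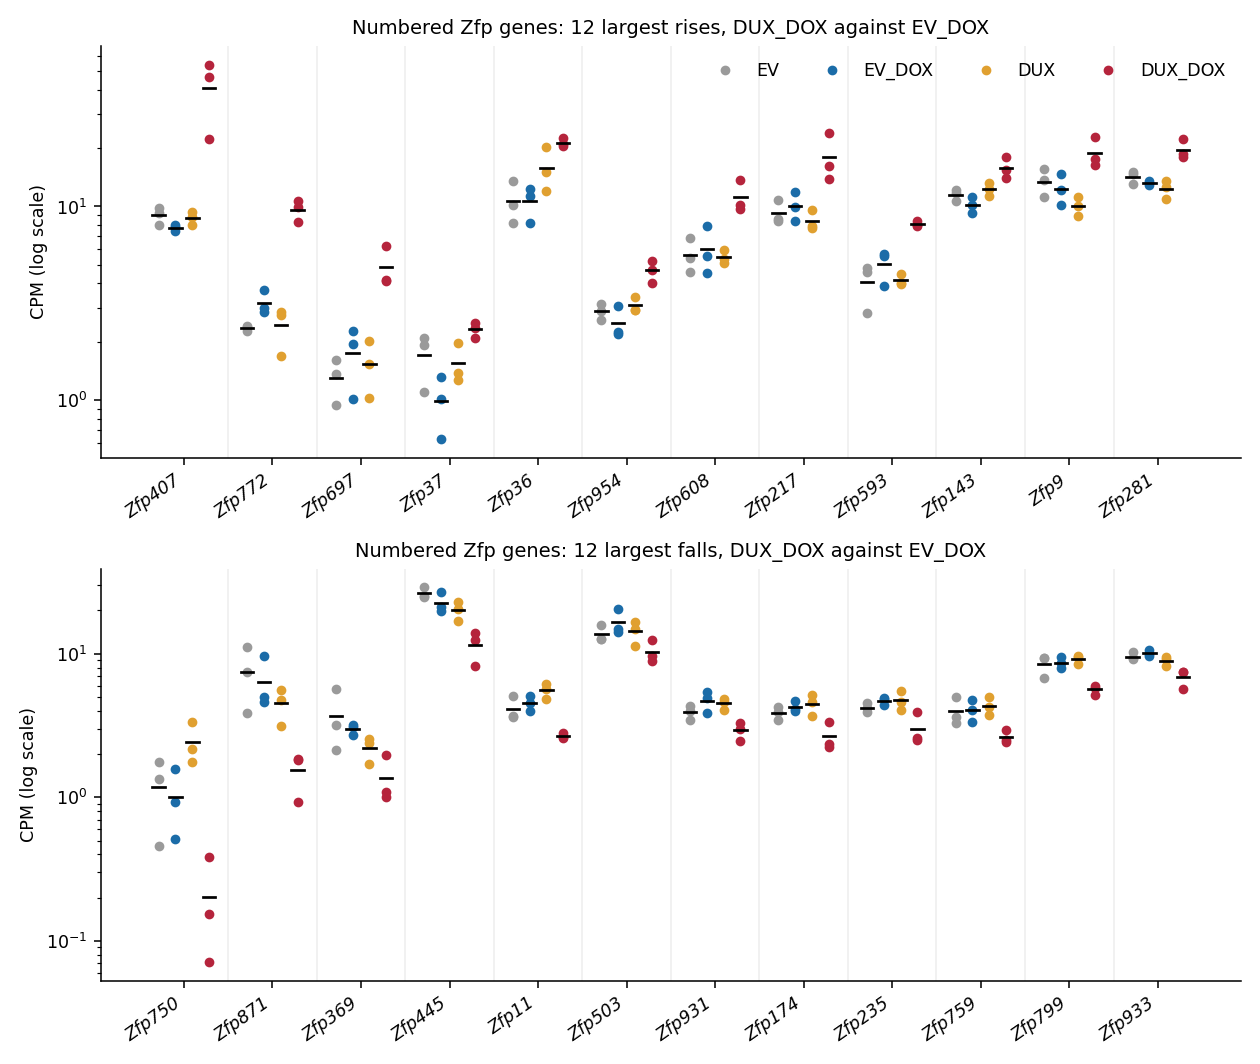
Level in CPM (log axis) of the 12 numbered Zfp genes with the largest rises (top) and the 12 with the largest falls (bottom) among called genes whose DUX_DOX and EV_DOX libraries did not overlap. Each dot is 1 library, bars mark group means, and for Zfp407 the DUX_DOX libraries lie at 22.4 to 54.1 CPM above all others.

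The other 7 of the 12 largest rises ran from 0.57 to 0.90 on the log2 scale. Zfp954, a KRAB gene of the same run on chromosome 7 as Zfp772, went from 2.19, 2.25 and 3.05 CPM in EV_DOX to 4.04, 4.72 and 5.26 CPM in DUX_DOX (log2 0.90 ± 0.19, SE, adjusted p 0.00296). Zfp608 and Zfp217 rose by 0.89 ± 0.21 and 0.84 ± 0.19 (SE), the latter a partner of the CoREST and CtBP corepressors, from 8.37 to 11.8 CPM in EV_DOX to 13.8 to 24.0 CPM in DUX_DOX. Zfp608 has a paralog, Zfp609, which was also called higher. Zfp143, an activator that binds promoters, had 9.27, 10.1 and 11.2 CPM in EV_DOX and 15.5, 18.0 and 14.1 CPM in DUX_DOX (log2 0.64 ± 0.12, SE, adjusted p 0.00171). Zfp281, known from pluripotent stem cells, had 12.9 to 13.5 CPM in EV_DOX and 18.1 to 22.4 CPM in DUX_DOX (log2 0.57 ± 0.11, SE, adjusted p 0.00217).

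Zfp593 and Zfp9 were the less firm members of this group. Zfp593, a ribosome biogenesis factor, stood at 3.87, 5.58 and 5.71 CPM in EV_DOX and 7.92, 8.01 and 8.42 CPM in DUX_DOX (log2 0.69 ± 0.19, SE, adjusted p 0.0171). Its adjusted p was 0.0568 without DUX_DOX 3 and 0.0598 without EV_DOX 1. On the opposite strand, E130218I03Rik covers most of the Zfp593 exons, 77.9% of their bases, and it is not stated whether the counting used strand. The KRAB member Zfp9 had 14.7, 12.2 and 10.2 CPM in EV_DOX and 17.6, 22.7 and 16.3 CPM in DUX_DOX (log2 0.61 ± 0.17, SE, adjusted p 0.0162). Without DUX_DOX 2 the adjusted p of Zfp9 was 0.0856, without EV_DOX 2 it was 0.0507 and without EV_DOX 3 it was 0.0675. The 10 called rises not named by the rule ran from 0.26 to 0.56 on the log2 scale.

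The largest falls were those of Zfp750 and Zfp871. Zfp750, a gene of low level that is known as a regulator of epidermal differentiation, had 0.511, 0.929 and 1.56 CPM in EV_DOX and 0.381, 0.0715 and 0.155 CPM in DUX_DOX, on 39 and 8 counts. DUX_DOX lay below the other 9 libraries, among which DUX was highest at 3.32, 1.77 and 2.167 CPM. The log2 fold change was -2.26 ± 0.69 (SE, adjusted p 0.0271), and the adjusted p was 0.0996 without DUX_DOX 2, 0.0907 without DUX_DOX 3 and 0.115 without EV_DOX 3. Zfp871, a KRAB member with 15 finger matches, had 11.1, 7.45 and 3.84 CPM in EV, 9.56, 4.96 and 4.62 CPM in EV_DOX and 4.74, 3.15 and 5.60 CPM in DUX. In DUX_DOX it fell to 1.83, 1.86 and 0.928 CPM. The controls spread widely, yet none reached down to DUX_DOX, and the log2 fold change was -2.04 ± 0.43 (SE, adjusted p 0.00308).

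Zfp445, a KRAB protein that guards imprinted loci together with Zfp57, fell by 0.96 ± 0.18 on the log2 scale (SE, adjusted p 0.00145). It had 29.0, 25.1 and 24.7 CPM in EV, 26.9, 19.75 and 20.97 CPM in EV_DOX, 20.3, 16.9 and 22.9 CPM in DUX and 12.5, 14.02 and 8.19 CPM in DUX_DOX. Zfp57 itself was low, at 0.481 to 1.47 CPM in all 12 libraries, and its log2 difference was 0.04 ± 0.37 (SE, adjusted p 0.947). Zfp369, a KRAB relative of the neurotrophin receptor interacting factor, had 3.07, 2.71 and 3.21 CPM in EV_DOX and 1.98, 1.00 and 1.08 CPM in DUX_DOX (log2 -1.14 ± 0.36, SE, adjusted p 0.0297). Its DUX libraries, at 1.69 to 2.54 CPM, overlapped DUX_DOX. The adjusted p of Zfp369 was 0.107 without DUX_DOX 2, 0.109 without DUX_DOX 3, 0.0546 without EV_DOX 1 and 0.0733 without EV_DOX 3.

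Zfp11 had 4.02, 5.11 and 4.54 CPM in EV_DOX and 2.82, 2.57 and 2.63 CPM in DUX_DOX (log2 -0.77 ± 0.19, SE, adjusted p 0.00804). Its tight DUX_DOX values lay below all other libraries. Zfp503, a developmental repressor also called Nolz1, had 14.9, 14.2 and 20.6 CPM in EV_DOX and 8.84, 9.58 and 12.4 CPM in DUX_DOX (log2 -0.69 ± 0.18, SE, adjusted p 0.0138). The adjusted p of Zfp503 was 0.0532 without DUX_DOX 1 and 0.0674 without EV_DOX 3. The KRAB member Zfp933 had 9.71, 10.6 and 9.94 CPM in EV_DOX and 7.47, 7.44 and 5.72 CPM in DUX_DOX (log2 -0.55 ± 0.13, SE, adjusted p 0.00678).

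The remaining 5 of the 12 largest falls, Zfp931, Zfp174, Zfp235, Zfp759 and Zfp799, lay at -0.69, -0.68, -0.64, -0.62 and -0.62 on the log2 scale. Zfp799 kept its call in every alternative run. The call of Zfp931 was lost without DUX_DOX 3 (adjusted p 0.0627) and without EV_DOX 3 (0.0615), and 23.3% of its transcript windows occur in other genes. Zfp174 was lost with only the compared groups in the fit (0.0513) and without DUX_DOX 2 (0.0762), DUX_DOX 3 (0.0913) or EV_DOX 2 (0.0606). Zfp235 was lost with only the compared groups (0.0623) and without DUX_DOX 1 (0.0865), DUX_DOX 2 (0.0948) or EV_DOX 3 (0.0728). Zfp759 was lost in 13 of 23 alternatives, with an adjusted p of up to 0.157. The 16 called falls not named by the rule ran from -0.28 to -0.54.

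Many members lie side by side, which allows a look at neighbours. They fell on 20 chromosomes, with 73 on chromosome 7, 36 on chromosome 17 and 23 each on chromosomes 8 and 13. With neighbours at most 250 kb apart, 167 members formed 39 runs of 2 or more. Of these runs 17 held a called member and 6 held at least 2, and those 6 are described here, which was chosen after the values were seen. In 3 of the 6 the calls went in both directions. Over all members 20.2% were called in DUX_DOX against EV_DOX, against 25.3% of all genes. No such count of runs was made for other genes, so whether neighbours moved together was not tested.

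On chromosome 7, from 7114690 to 7209998, lie Zfp954, Zfp773, Zfp418 and Zfp772 in this order, all KRAB members. The outer pair rose, as given above. Zfp773 stood at 0.438 to 0.861 CPM in EV_DOX and 0.309 to 0.533 CPM in DUX_DOX, and Zfp418 at 0.511 to 1.33 and 0.762 to 1.31 CPM, neither of them called. On chromosome 17, from 32765496 to 33631779, all 10 members had a log2 fold change below 0, and Zfp871 and Zfp799, which start the run, were called. Zfp799 had 7.96, 8.60 and 9.47 CPM in EV_DOX and 5.79, 5.94 and 5.18 CPM in DUX_DOX (log2 -0.62 ± 0.15, SE, adjusted p 0.00770).

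Neighbours also moved apart. In a run of 13 on chromosome 7, Zfp568 rose and Zfp383 fell, and 10 of the 13 lay below 0. Zfp383 had 6.64, 7.98 and 9.78 CPM in EV_DOX and 5.33, 5.79 and 6.42 CPM in DUX_DOX (log2 -0.47 ± 0.15, SE, adjusted p 0.0373), and its adjusted p ranged up to 0.171 over the alternatives, without EV_DOX 3. Zfp948 and Zfp943, in a run of 11 on chromosome 17, went from 4.53 to 5.40 up to 6.72 to 8.23 CPM and from 24.2 to 27.3 down to 17.7 to 20.1 CPM (log2 0.55 ± 0.14 and -0.43 ± 0.10, SE). Both kept their calls in every alternative run. Zfp628 rose and Zfp784 fell in a run of 6 without KRAB boxes (log2 0.38 ± 0.12 and -0.54 ± 0.19, SE). Neither call was firm. Zfp628 lost it in 13 of 24 alternatives, among them DESeq2 (adjusted p 0.0863), the replicate block (0.0568) and upper-quartile scaling (0.0525), with the highest value, 0.131, without DUX_DOX 3. Zfp784 lost it in 12 of 23, among them DESeq2 (0.0914) and limma-voom (0.0577), with the highest value, 0.154, without DUX_DOX 1. On the opposite strand, 4632433K11Rik and Zfp865, a member of the same run, cover 94.8% of the Zfp784 exon bases. It is not stated whether the counting used strand. Zfp235 and Zfp93 both fell in a run of 10 on chromosome 7, Zfp93 by 0.47 ± 0.15 on the log2 scale (SE, adjusted p 0.0312). Without DUX_DOX 1, DUX_DOX 2, EV_DOX 2 or EV_DOX 3 the adjusted p of Zfp93 was 0.0854, 0.0803, 0.0739 or 0.0823, and it was 0.0850 with DESeq2 and 0.0859 with only the compared groups in the fit. Of the transcript windows of Zfp93, 20.8% occur in other genes.

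**Figure D3:**
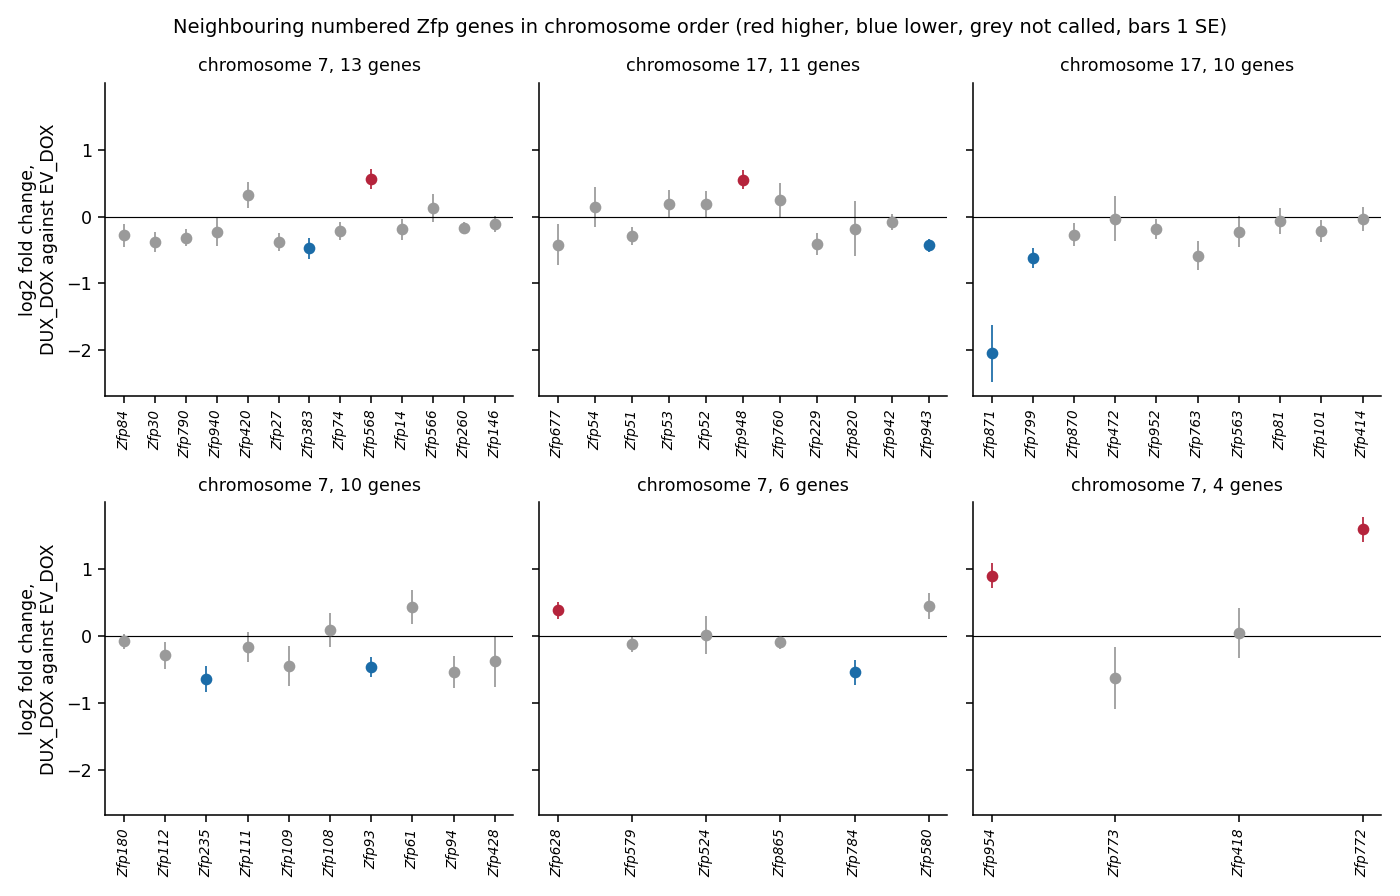
Log2 fold change of DUX_DOX against EV_DOX (y axis, bars 1 SE) of neighbouring numbered Zfp genes in chromosome order (x axis) in the 6 runs with at least 2 calls. Red marks rises, blue falls and grey genes not called, and Zfp871 at -2.04 and Zfp772 at 1.60 are the extremes.

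The upstream sequences of the called pairs Zfp772 and Zfp954, which rose, and Zfp871 and Zfp799, which fell, are shown here. These genes are the called members of 2 runs in which both calls had the same sign. Zfp772 and Zfp954 have 2 members between them that were not called. The pair Zfp235 and Zfp93, which both fell in another such run, is not shown. The sequences are the 250 bases before each annotated start, from the RefSeq promoter table of build GRCm38, on the gene's own strand. That is the minus strand for all 4. Zfp772 is at chr7:7209999-7210248, Zfp954 at chr7:7121477-7121726, Zfp871 at chr17:32788288-32788537 and Zfp799 at chr17:32830262-32830511. Capitals mark CCAAT on either strand and the AP-1 letters TGANTCA.
Zfp772: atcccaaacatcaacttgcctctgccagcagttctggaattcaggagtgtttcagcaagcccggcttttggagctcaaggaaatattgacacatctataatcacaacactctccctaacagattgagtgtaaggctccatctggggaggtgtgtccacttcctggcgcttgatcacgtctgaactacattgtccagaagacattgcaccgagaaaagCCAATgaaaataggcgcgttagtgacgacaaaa
Zfp954: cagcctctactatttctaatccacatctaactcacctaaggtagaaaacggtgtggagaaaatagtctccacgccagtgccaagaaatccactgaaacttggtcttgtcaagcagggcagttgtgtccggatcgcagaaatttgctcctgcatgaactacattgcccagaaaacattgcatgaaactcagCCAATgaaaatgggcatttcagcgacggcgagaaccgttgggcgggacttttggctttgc
Zfp871: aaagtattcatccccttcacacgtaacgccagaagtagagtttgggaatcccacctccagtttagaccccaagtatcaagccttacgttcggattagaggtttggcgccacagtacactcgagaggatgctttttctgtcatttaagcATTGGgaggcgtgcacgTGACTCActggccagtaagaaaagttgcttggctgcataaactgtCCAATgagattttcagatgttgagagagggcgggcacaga
Zfp799: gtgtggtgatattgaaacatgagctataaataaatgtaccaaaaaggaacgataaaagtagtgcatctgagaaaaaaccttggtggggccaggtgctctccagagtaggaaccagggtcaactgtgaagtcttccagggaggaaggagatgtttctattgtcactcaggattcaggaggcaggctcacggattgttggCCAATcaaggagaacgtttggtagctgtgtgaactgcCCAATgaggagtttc

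CCAAT is present once in each promoter of the rising pair and at 2 places in each of the falling pair. These letters are common, since they occur in 37.5% of the 27025 genes in the table and in 49.2% of the 236 members found there. Of the called members found there, they occur in 10 of 19 that rose and in 17 of 28 that fell. A difference between the directions was not tested. TGANTCA is in the Zfp871 window and in 3.81% of member promoters against 7.82% of all. The ETS letters CCGGAAG are in none of the 4 windows, in 19.1% of member promoters and in 7.83% of all. GATTNAATC, letters at the centre of the site that Dux prefers, occurs in 0 of the 236 member promoters and in 0.285% of all. Each motif was searched on both strands, and in the 4 windows no base lay in more than 1 of them. A match or its absence describes these letters in these windows only.

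Zinc finger proteins with roles in RNA and ribosome biology formed a list of 12, all measured, of which 3 rose and 2 fell. That is 41.7% called, against 25.3% of all genes. The rises were Zfp36, Zfp593 and Zfp207, a spindle assembly and splicing factor. Zfp207 had 73.4, 74.9 and 71.8 CPM in EV_DOX and 90.1, 98.5 and 87.5 CPM in DUX_DOX (log2 0.33 ± 0.07, SE, adjusted p 0.00387), a small change that separated DUX_DOX from all other libraries. The falls were Zfp106 and Zfp638. Zfp106, an RNA-binding protein needed by motor neurons and muscle, had 1625, 1619 and 1595 CPM in EV, 1397, 1261 and 1312 CPM in EV_DOX and 1311, 1321 and 1242 CPM in DUX. It stood at 1130, 951 and 827 CPM in DUX_DOX, below all others (log2 -0.45 ± 0.11 against EV_DOX, SE, adjusted p 0.00720). The 6 muscle fibre genes given above also had log2 fold changes below 0 here, with 1 of them called and a median of -0.30, and their part in the level of Zfp106 was not tested. An antisense gene, Gm26899, covers 26.1% of its exon bases. On normal chow Zfp106 differed between DUX and EV by -0.32 ± 0.11 (log2, SE, adjusted p 0.218). The vector difference on doxycycline chow minus that on normal chow was -0.13 ± 0.15 (log2, SE, adjusted p 0.630). Zfp638, linked to fat cell differentiation and to gene silencing, had 34.2 to 37.2 CPM in EV_DOX and 25.7 to 29.7 CPM in DUX_DOX (log2 -0.34 ± 0.08, SE, adjusted p 0.0100), with an adjusted p of 0.0527 under an offset for transcript length.

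The other 7 of that list were not called. Zfp598, a sensor of collided ribosomes, had 28.6 to 30.2 CPM in EV_DOX and 28.9 to 32.5 CPM in DUX_DOX (log2 difference 0.08 ± 0.08, SE, adjusted p 0.50). Zfp91, Zfp326 and Zfp706 differed by -0.09, -0.07 and -0.09, and Zfp346, Zfp622 and Zfp830 by 0.21, 0.27 and 0.27, with adjusted p from 0.0921 to 0.694.

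Of 6 zinc finger genes of the early embryo or of Dux targets, Zfp750, Zfp57 and Zfp281 were measured, and their values are above. Among these 3 genes 1 rose and 1 fell, or 66.7% against 25.3% of all genes. Of 5 linked to retroelement silencing, 4 were measured and 1 rose. This was Zfp568, a KRAB repressor of a placental Igf2 transcript, with 21.5, 14.5 and 16.2 CPM in EV_DOX and 28.6, 26.0 and 22.6 CPM in DUX_DOX (log2 0.56 ± 0.14, SE, adjusted p 0.0115). The lowest DUX_DOX library was just above the highest EV_DOX library, and the adjusted p was 0.0622 without EV_DOX 2. Zfp809, which binds a retroviral primer site, had 2.43 to 2.92 CPM in EV_DOX and 2.16 to 3.00 CPM in DUX_DOX, which overlapped. Zfp932 and Zfp951 differed by -0.15 and 0.08 with adjusted p of 0.549 and 0.889, and 37.0% of the transcript windows of Zfp932 occur in other genes. None of the 4 mesenchymal and adipose regulators was called, against 25.3% of all genes. Zfp423, a factor of fat cell commitment, Zfp521, Zfp467 and Zfp516 differed by -0.17, 0.03, -0.31 and 0.38 with adjusted p of 0.333, 0.892, 0.0838 and 0.0652. The sign of Zfp521 turned under upper-quartile scaling, where it was -0.01. Zfp467 was called with the GC offset (adjusted p 0.0432). Zfp516 was called with the length offset (0.00865) and without DUX_DOX 3 (0.0227), EV_DOX 1 (0.0311) or EV 2 (0.0489).

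Levels per kilobase of exon ranked Zfp106 far above the rest in EV, at 155 CPM per kb against a member median of 1.33. Zfp91, a ubiquitin ligase, Zfp651, Zfp768 and Zfp358 followed with 29.7, 20.99, 15.4 and 13.02 CPM per kb. Zfp91 overlaps Cntf on the same strand over 8.43% of its exon bases. In DUX_DOX against EV_DOX the last 3 differed by -0.07, -0.17 and 0.21 on the log2 scale with adjusted p of 0.703, 0.296 and 0.195. Without EV_DOX 1 Zfp768 was called (-0.29, adjusted p 0.0420) and Zfp651 turned to 0.04. Zfp106 made up the largest part of the summed level of the members, which was 4956 to 5112 CPM in EV, 4567 to 4665 CPM in EV_DOX, 4537 to 4746 CPM in DUX and 3900 to 4390 CPM in DUX_DOX.

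The effect of chow within the Dux vector was read from DUX_DOX against DUX, which shares the DUX_DOX libraries with the comparison above. Here 27 members rose and 50 fell, or 26.8% against 29.6% of all genes, with 16.5% of all genes higher and 13.1% lower. Rises numbered 15 without DUX_DOX 2, and falls 30 without DUX 1 and 30 without DUX_DOX 3. The median log2 fold change was -0.13 over the members and 0.01 over all genes. KRAB members gave 7 rises and 30 falls, and members without the box 20 and 20, or 22.4% and 33.3% called. Zfp407 and Zfp772 again had the highest values (log2 2.24 ± 0.24 and 1.98 ± 0.19, SE), and Zfp750 the lowest (log2 -3.53 ± 0.60, SE).

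Outside the 24 genes with the largest changes against EV_DOX, the largest rises against DUX were Zfp568, Zfp653 and Zfp513, at 0.74, 0.66 and 0.64 on the log2 scale. Zfp653 had 4.35, 5.23 and 2.99 CPM in DUX and 6.32, 6.94 and 6.65 CPM in DUX_DOX. Its adjusted p of 0.0144 became 0.0507 without DUX_DOX 2 and 0.0613 without DUX 3. Zfp513 had 9.01, 6.62 and 5.90 CPM in DUX and 9.14, 12.0 and 12.4 CPM in DUX_DOX (adjusted p 0.00936). The largest falls were Zfp773, Zfp960 and Zfp791, at -1.42 ± 0.43, -1.07 ± 0.26 and -0.96 ± 0.26 (SE). Zfp773 lost its call without DUX_DOX 2 (adjusted p 0.0611), DUX 2 (0.121) or DUX_DOX 3 (0.0829), and Zfp791 without DUX_DOX 2 (0.0590) or DUX 3 (0.0549). Zfp960 had 1.98, 1.92 and 2.09 CPM in DUX and 0.990, 0.930 and 0.928 CPM in DUX_DOX. Zfp960 cannot be told from Zfp97 in most of its sequence, since 81.4% of its transcript windows occur in Zfp97 too.

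On normal chow the Dux vector changed no member past the threshold, DUX against EV, with 0 of 287 called by edgeR, DESeq2 or limma-voom and 0.0% of all genes called. At an unadjusted p under 0.05 (edgeR) there were 36 of 287 members and 2012 of all 12751 genes. The smallest adjusted p of a member was 0.192. Zfp791 and Zfp960, named above for their falls against DUX, differed by 1.04 ± 0.26 and 0.93 ± 0.25 on the log2 scale (SE), and Zfp750 by 1.03 ± 0.44 (SE). Zfp791 had 1.02, 1.04 and 0.921 CPM in EV and 1.90, 1.92 and 2.32 CPM in DUX, and these groups did not overlap. Doxycycline alone, EV_DOX against EV, likewise gave 0 called members by the 3 tools, against 0.0392% of all genes. An unadjusted p under 0.05 (edgeR) was reached there by 16 of 287 members and 999 of all 12751 genes. The member medians were 0.03 for the vector on normal chow and -0.01 for doxycycline with the empty vector.

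Whether the vector difference itself depended on chow was tested by the interaction, the log2 difference of DUX_DOX from EV_DOX minus that of DUX from EV. It was above 0 for 11 called members and below 0 for 13, or 8.36% against 10.4% of all genes, of which 6.97% were above and 3.43% below. The number fell to 13 without DUX 1, DUX_DOX 2, EV_DOX 2 or EV_DOX 3, to 14 without DUX 2 and to 12 without EV 3. Since DUX minus EV enters the interaction with a minus sign, choosing members by a called interaction favours the opposite sign on normal chow, where 0 members were called. The interaction was 2.45 ± 0.36 (SE, adjusted p 0.00062) for Zfp407 and 1.55 ± 0.29 (SE, adjusted p 0.00430) for Zfp772, where DUX and EV differed by -0.04 and 0.05.

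Zfp3 had 14.1, 14.3 and 15.04 CPM in EV and 18.7, 16.7 and 15.8 CPM in DUX, but 14.9, 15.03 and 16.5 CPM in EV_DOX and 9.98, 11.9 and 11.2 CPM in DUX_DOX. On normal chow the Dux libraries were all above the empty vector, on doxycycline chow all below it, and the interaction was -0.72 ± 0.15 (SE, adjusted p 0.00725). Zfp710 behaved alike in its values, with 29.9 to 32.9 CPM in EV, 34.0 to 36.1 CPM in DUX, 29.0 to 31.5 CPM in EV_DOX and 23.6 to 24.8 CPM in DUX_DOX (interaction -0.49 ± 0.11, SE, adjusted p 0.0110). Zfp592 had the reverse order, with 28.9 to 33.6 CPM in EV, 27.4 to 29.3 CPM in DUX, 28.5 to 30.4 CPM in EV_DOX and 35.3 to 40.8 CPM in DUX_DOX (interaction 0.54 ± 0.12, SE, adjusted p 0.0115). Zfp281, Zfp11 and Zfp9 had interactions of 0.78 ± 0.16, -1.20 ± 0.25 and 1.03 ± 0.24 (SE). Each of these 8 members kept its call in the interaction in all 23 alternatives.

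**Figure D4:**
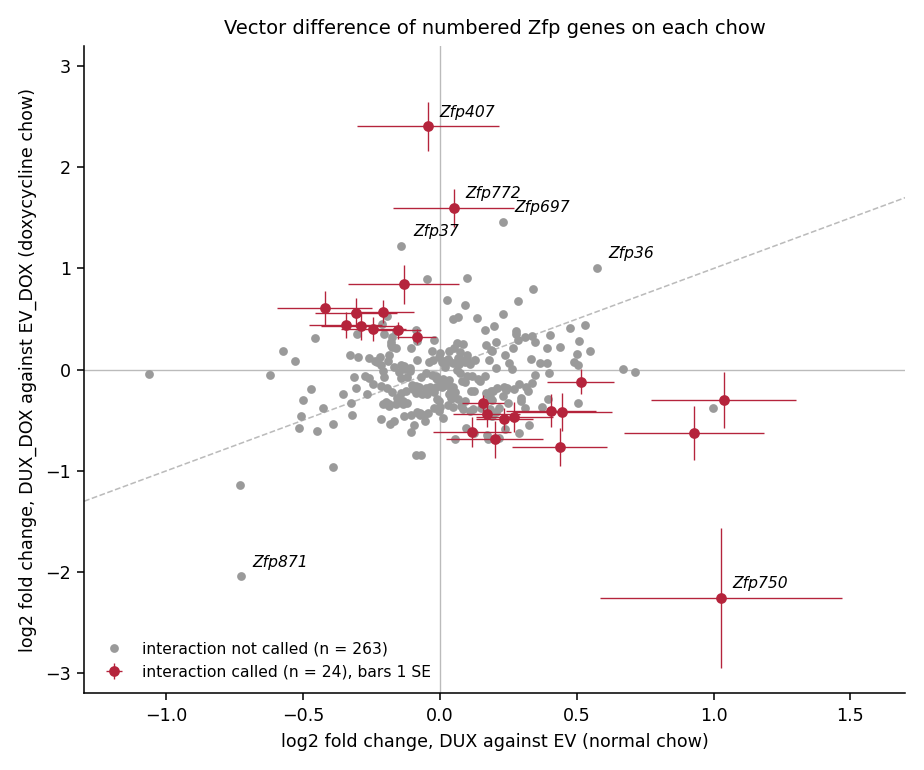
Log2 fold change of the Dux vector on normal chow (x axis, DUX against EV) and on doxycycline chow (y axis, DUX_DOX against EV_DOX) for 287 numbered Zfp genes, comparisons that share no library. Red points with bars of 1 SE are the 24 members with a called interaction, the dashed line marks equal values, and Zfp407 lies at -0.04 and 2.41.

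Other zinc finger genes stood beside the numbered members in the same comparison, DUX_DOX against EV_DOX. Of 17 Zscan genes 9 rose and 0 fell, and 8 of the 9 are Zscan4 genes of the 2-cell embryo, whose mean levels in EV_DOX were 0 to 0.0504 CPM. Of 39 Zbtb genes 6 rose and 3 fell, with a median of 0.13. Of 8 Zkscan genes 1 rose and 3 fell, and of 25 Zfp genes with a letter after the number 2 rose and 2 fell, with a median of -0.17 and 20 below 0. The shares called were 52.9% for Zscan, 23.1% for Zbtb, 50% for Zkscan and 16% for the lettered Zfp genes, against 25.3% of all genes. The Zscan share cannot be set against that of all genes. Genes near 0 in EV_DOX reach the lowest mean count of the deposited table, 10.0, only through libraries where they are high. Zscan4d and Zscan4f also each stand under 2 gene identifiers. Differences between these families and the numbered members were not tested.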

How the data were processed

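Poly-A RNA of 12 tibialis anterior libraries, prepared from 200 ng of total RNA with a TruSeq kit per the labels' protocols, was deposited as 1 table of read counts per gene. Per the submitters' processing notes, bcl2fastq 2.17.1.14, STAR, featureCounts and build GRCm38 were used. For STAR and featureCounts the version is not given in the sources used here, nor whether counting used strand. The lowest mean count of a row of the deposited table was 10.0, so genes of low count were not in it. All 12 sample columns were matched to the labels. Dux itself is not analysed here.

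Counts were filtered with filterByExpr, which kept 12751 of 12752 genes, scaled by TMM (factors 0.916 to 1.12) and fitted over all 4 groups with edgeR 4.0.16 (quasi-likelihood test, R 4.3.3). Benjamini-Hochberg adjustment ran over all genes tested, with a threshold of 0.05. The median biological coefficient of variation was 10.6%. In counts simulated for DUX_DOX against EV_DOX over 12749 genes, the test recovered 44.8% of 67 changes of 1.5-fold, 77.6% of 67 of 2-fold and 97.0% of 66 of 4-fold, with 5 false calls. The changed genes were drawn from all genes above a low CPM limit, not from the members. Members had a lower median mean count, 82.0 against 181.58 over all genes, so these shares do not give the recovery for members. Alternatives used DESeq2 1.42.0, limma 3.58.1, other filters, scalings and offsets, and left out single libraries. Figures and tables used Python 3.11.15, numpy 2.4.6, pandas 2.3.3 and matplotlib 3.10.9.

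Lengths, positions and proteins came from GENCODE M21 (GRCm38), which held 12728 of the 12752 gene identifiers, and transcript length and GC were found for 12723. Finger matches were counted by pattern. The KRAB A box was searched in 2 rounds with HMMER 3.4, from 120 seed windows of 40 residues, at an E-value of at most 0.001. Named genes are the 12 largest rises and 12 largest falls among called members with groups that do not overlap, the 5 highest per kb in EV, the role lists, the 8 interactions of smallest p and the 3 largest other rises and falls against DUX. Interaction values of further members, and neighbours, were added after their values were seen. The members and lists were chosen with earlier results of these data known.

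Deviations of samples with the same replicate number correlated at -0.112 to 0.0943 between DUX_DOX and EV_DOX, and the labels tie no number to an animal, so the numbers were not used as pairs.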

Additional observations from a re-analysis of the deposited data

Results flagged for a closer look

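For 16 members the effect of the Dux vector differed between the chows by the test of the interaction (edgeR, adjusted p under 0.05), and the values below are the log2 vector effect on doxycycline chow minus that on normal chow. The vector effect was higher on doxycycline chow for Zfp407 (2.45), Zfp772 (1.55), Zfp9 (1.03), Zfp217 (0.98), Zfp568 (0.87), Zfp281 (0.78), Zfp592 (0.54) and Zfp207 (0.41). It was lower on doxycycline chow for Zfp750 (-3.29), Zfp960 (-1.56), Zfp791 (-1.34), Zfp11 (-1.20), Zfp931 (-0.89), Zfp799 (-0.74), Zfp3 (-0.72) and Zfp710 (-0.49). These 16 are the named members among the 24 called.

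The call was kept in every alternative run for Zfp407, Zfp772, Zfp3, Zfp281, Zfp11, Zfp710, Zfp592, Zfp9, Zfp960 and Zfp568. It was lost in 3 of 23 alternatives for Zfp207 (adjusted p of up to 0.0540), 4 of 22 for Zfp750 (0.0683), 11 of 23 for Zfp799 (0.0906), 12 of 22 for Zfp791 (0.101), 10 of 23 for Zfp217 (0.0939) and 13 of 23 for Zfp931 (0.106).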

How the results depend on the processing

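With only the compared groups in the fit, 17 members rose and 19 fell in DUX_DOX against EV_DOX, from 26 and 32. Leaving out 1 library at a time gave 14 to 27 rises and 18 to 35 falls there, 15 to 28 rises and 30 to 54 falls in DUX_DOX against DUX, and 12 to 34 called interactions. With the replicate block, the counts were 23 rises and 30 falls in DUX_DOX against EV_DOX, 26 and 46 against DUX, 17 interactions, and 0 members in DUX against EV and in EV_DOX against EV. The block with a GC offset gave 23 and 31, 26 and 43, and 19 interactions. The member median against EV_DOX ran from -0.146 (upper-quartile scaling) to -0.0826 (GC offset). Among the named members, the sign turned for 5 that were not called, whose values without 1 library ran from -0.2 to 0.0373 for Zfp651, -0.269 to 0.282 for Zfp57, -0.204 to 0.0471 for Zfp809, -0.137 to 0.32 for Zfp951 and -0.0389 to 0.127 for Zfp521. Zfp521 was -0.00897 with upper-quartile scaling, and without EV 3 and EV_DOX 1 together Zfp651 was 0.0373 and Zfp809 0.0289. The causes were not tested. The median mean count was 82.0 for members and 181.58 for all genes, which limits how small a change can be called.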
